A study of Mus musculus with 3 samples.

Results

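The genes of the signaling lymphocyte activation molecule (SLAM) receptors were examined through the peaks of CTCF in LSK cells that lay on Chromosome 1 within 100 kb of Ly9, Slamf7, Cd48, Slamf1, Cd84, Slamf6, Slamf9 or Slamf8. A peak was a member when it overlapped by at least 1 bp the body of one of these 8 genes (GENCODE M21 gene records, genome build mm10) extended by 100 kb on both sides. The rule found 20 of the 18945 peaks in the list. The extended genes merged into 2 windows, chr1:171488624-172053170 around Ly9, Slamf7, Cd48, Slamf1, Cd84 and Slamf6 in that order, and chr1:172375358-172690568 around Slamf9 and Slamf8. Each window held 10 peaks, which are called P1 to P20 here in their order along the chromosome.

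The study collected epigenomes of mouse blood cells, and this series holds CTCF ChIP-seq of 1 library with a peak list. The LSK cells came from bone marrow of adult C57BL6 mice and carried cKit and Sca1 but none of the lineage markers CD4, CD8, IL7Ra, CD11b, Ly6g, CD45R and Ter119. Neither the product of Slamf1 nor that of Cd48 was part of this gate, so LSK cells with and without them were pooled and cannot be told apart in these values. An LSK input and a MEP input (megakaryocyte erythrocyte progenitor cells) belong to the series too and were not analyzed here. The CTCF library had no replicate, so every comparison is a description of 1 library.

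SLAM receptors are immunoglobulin superfamily proteins of blood cells, most of which bind a copy of themselves on the neighboring cell and signal through small adaptors such as the product of Sh2d1a. Slamf1 encodes CD150, and in mouse marrow cells with CD150 and without CD48 are rich in long-term stem cells, whereas progenitor cells gain CD48. CTCF is a zinc finger protein that binds a long, directional DNA motif. It holds chromatin loops together with cohesin, mostly between a pair of sites whose motifs face each other.

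To show what DNA lay beneath the peaks that concern the receptor genes, the central 200 bp are given for the 6 peaks whose nearest protein-coding transcription start site (TSS) was that of a SLAM receptor gene. All sequences are from GRCm38.p6, which has the coordinates of mm10. Capitals mark the 12 bases of the motif core in the best site of each peak. No capitals means that no site reached the limit explained with the motif results.
P4, upstream of Ly9, chr1:171610143-171610342, plus strand: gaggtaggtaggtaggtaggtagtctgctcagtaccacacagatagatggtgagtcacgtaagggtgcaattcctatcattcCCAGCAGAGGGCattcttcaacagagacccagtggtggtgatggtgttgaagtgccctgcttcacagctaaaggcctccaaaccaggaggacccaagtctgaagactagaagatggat
P5, upstream of Ly9, chr1:171614042-171614241, plus strand: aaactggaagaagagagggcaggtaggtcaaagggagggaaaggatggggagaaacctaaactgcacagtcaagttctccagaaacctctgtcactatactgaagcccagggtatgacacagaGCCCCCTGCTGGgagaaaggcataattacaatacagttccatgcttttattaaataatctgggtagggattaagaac
P6, in Cd48, chr1:171699172-171699371, plus strand: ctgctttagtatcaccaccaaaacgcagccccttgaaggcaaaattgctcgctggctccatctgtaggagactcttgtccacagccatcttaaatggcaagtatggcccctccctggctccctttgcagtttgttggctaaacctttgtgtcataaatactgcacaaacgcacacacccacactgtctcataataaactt
P7, between Slamf1 and Cd84, chr1:171815820-171816019, plus strand: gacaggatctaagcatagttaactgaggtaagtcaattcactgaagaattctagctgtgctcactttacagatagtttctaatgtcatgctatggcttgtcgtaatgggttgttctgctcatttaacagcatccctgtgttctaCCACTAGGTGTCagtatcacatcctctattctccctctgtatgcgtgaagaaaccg
P8, upstream of Cd84, chr1:171826226-171826425, plus strand: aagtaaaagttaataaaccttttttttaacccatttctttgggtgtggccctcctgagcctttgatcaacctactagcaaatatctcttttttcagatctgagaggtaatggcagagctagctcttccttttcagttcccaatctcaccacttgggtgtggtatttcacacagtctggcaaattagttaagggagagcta
P18, upstream of Slamf8, chr1:172594596-172594795, plus strand: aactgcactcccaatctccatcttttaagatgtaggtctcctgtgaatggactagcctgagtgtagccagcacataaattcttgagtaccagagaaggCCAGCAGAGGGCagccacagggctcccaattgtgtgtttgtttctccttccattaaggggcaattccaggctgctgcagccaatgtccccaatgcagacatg

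P4, P5, P7 and P18 each held a motif close to the center of the peak. P6, the only member peak within a SLAM receptor gene, and P8 held none. The next set shows which peaks shared a core. The 20 bases of the best site are written in the direction of the motif, with the core in capitals.
P4, chr1:171610221-171610240, plus strand: attcCCAGCAGAGGGCattc
P18, chr1:172594690-172594709, plus strand: aaggCCAGCAGAGGGCagcc
P5, chr1:171614161-171614180, minus strand: tctcCCAGCAGGGGGCtctg
P10, chr1:172047069-172047088, plus strand: gtggCCAGCAGGGGGCagtg
P13, chr1:172412415-172412434, plus strand: ttgaCCACTAGGTGGCgcta
P14, chr1:172490568-172490587, minus strand: ctggCCAGCAGAGGGAgaca
P19, chr1:172619418-172619437, plus strand: tgtgCCGCCAGGGGGCgcca
The cores of P4 and P18 were the same, as were those of P5 and P10, while the bases around them differed. The share of all peaks with these cores is not given here, so the sharing cannot be called particular to the member peaks. P13 and P14 are shown as the sites on either side of Slamf9, of which P14 was nearer to the gene, and P19 as the site of the strongest member peak. For contrast, the best match in P11, a strong peak without a site, was cataCCAGTAGGTGATgcta at chr1:172409207-172409226 on the plus strand.

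In the receptor interval itself the peaks lay between genes, except for P6 in Cd48. From the start of Ly9 to the end of Slamf6, 365 kb, there were 5 peaks. The 25 kb between Ly9 and Slamf7 held P4 and P5. The 29.0 kb between Slamf7 and Cd48 had 0 peaks, and the 61.9 kb between Cd48 and Slamf1 had 0. The 38.5 kb between Slamf1 and Cd84 had 2, P7 and P8, and the 26.8 kb between Cd84 and Slamf6 had 0. Cd48, which encodes a lipid-anchored ligand of the receptor CD244, was the only one of the 8 genes with a peak midpoint in its body. The other 5 peaks of the first window lay farther out. P1, P2 and P3 (fold enrichment 8.74, 9.46 and 11.09) stood side by side at Alyref2, a gene of an mRNA export adaptor, and P3 covered its TSS. P9 (9.46) was in an intron of Vangl2, a planar cell polarity gene, and P10 (12.07) was 10136 bp from the TSS of Nhlh1, which encodes a neuronal transcription factor.

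**Figure D1:**
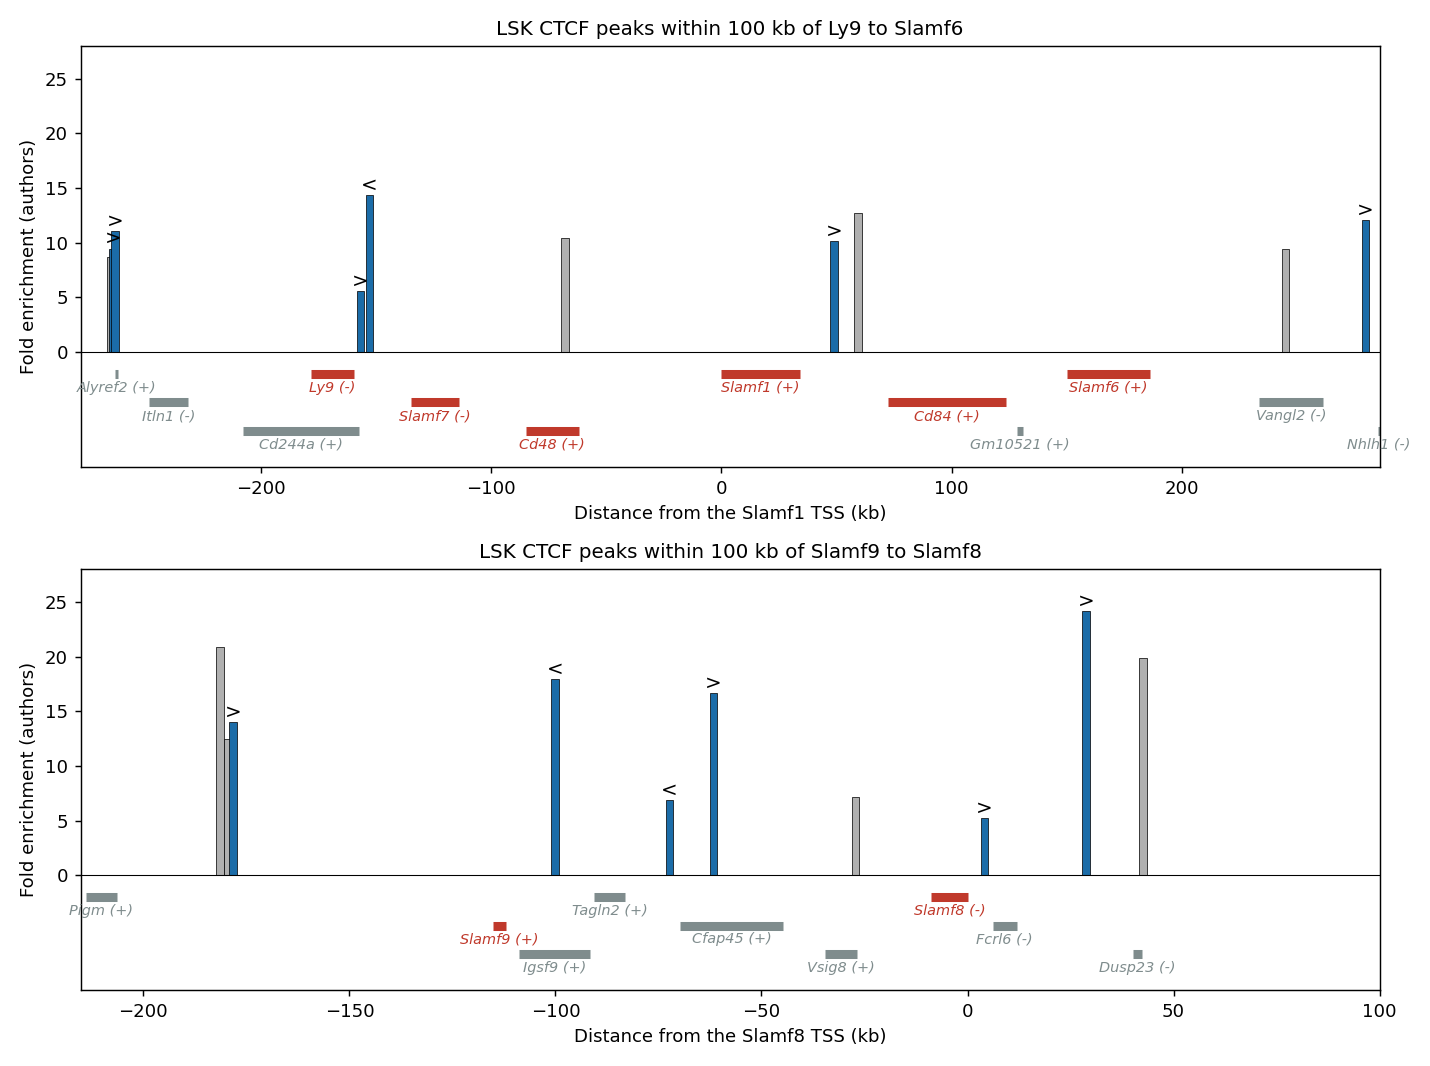
LSK CTCF peaks of both windows, with distance from the Slamf1 TSS (top) or the Slamf8 TSS (bottom) in kb on the x axis and the authors' fold enrichment on the y axis, up to 24.15. Each bar is 1 peak, drawn wider than the peak, blue with > (plus strand) or < (minus strand) where it held a motif site and gray where it did not, with SLAM receptor genes in red and other protein-coding genes in gray below. The stretch over Cd84 and Slamf6 has no bar.

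Around Slamf9 and Slamf8 the peaks were closer together. The 103 kb between these genes held 4, the 100 kb before Slamf9 held 3, and the 100 kb beyond Slamf8 held 3. Slamf9 and Slamf8 encode members of the family without the cytoplasmic motifs that bind the adaptors. No peak had its midpoint in the body of either gene. P11, P12 and P13 (20.88, 12.46 and 14.03) formed a group before Slamf9 within a few kilobases. P14 (17.95) lay in an exon that Igsf9, an adhesion molecule gene, has in a transcript with a retained intron, P15 (6.85) was 2245 bp upstream of the TSS of Cfap45, a gene of cilia, and P16 (16.64) was in an intron of Cfap45. P17 (7.18) was in a UTR of Vsig8. P18 (5.22) was upstream of Slamf8, P19 (24.15) was intergenic, and P20 (19.9) covered the TSS of Dusp23, a phosphatase gene.

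The density of peaks was 22.7 per Mb over both windows, 6.15 per Mb on the rest of Chromosome 1 and 7.19 per Mb over the whole list. The density of protein-coding TSSs moved with it, at 22.7 per Mb in the windows, 6.11 per Mb on the rest of Chromosome 1 and 8.26 per Mb over the genome. Expressed per protein-coding TSS, the windows had 1.0 peak, the rest of Chromosome 1 had 1.01 and the whole genome 0.871. The first window had 17.7 peaks per Mb and the second 31.7, with 19.5 and 28.6 protein-coding TSSs per Mb. Per protein-coding TSS they had 0.909 and 1.11 peaks. Cut to the gene ends, the stretch from Ly9 to Slamf6 had 5 peaks in 365 kb (13.7 per Mb). That from Slamf9 to Slamf8 had 4 in 115 kb (34.7 per Mb). Besides the receptor genes, the stretch from Ly9 to Slamf6 held the protein-coding TSS of Gm10521 only. The shorter stretch from Slamf9 to Slamf8 held those of Igsf9, Tagln2, Cfap45 and Vsig8, so it was also denser in TSSs. Peaks per TSS were not computed for these stretches, and their densities of peaks are not adjusted for this. The 322 kb between the windows, whose 9 peaks were not members, had 27.9 per Mb.

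**Figure D2:**
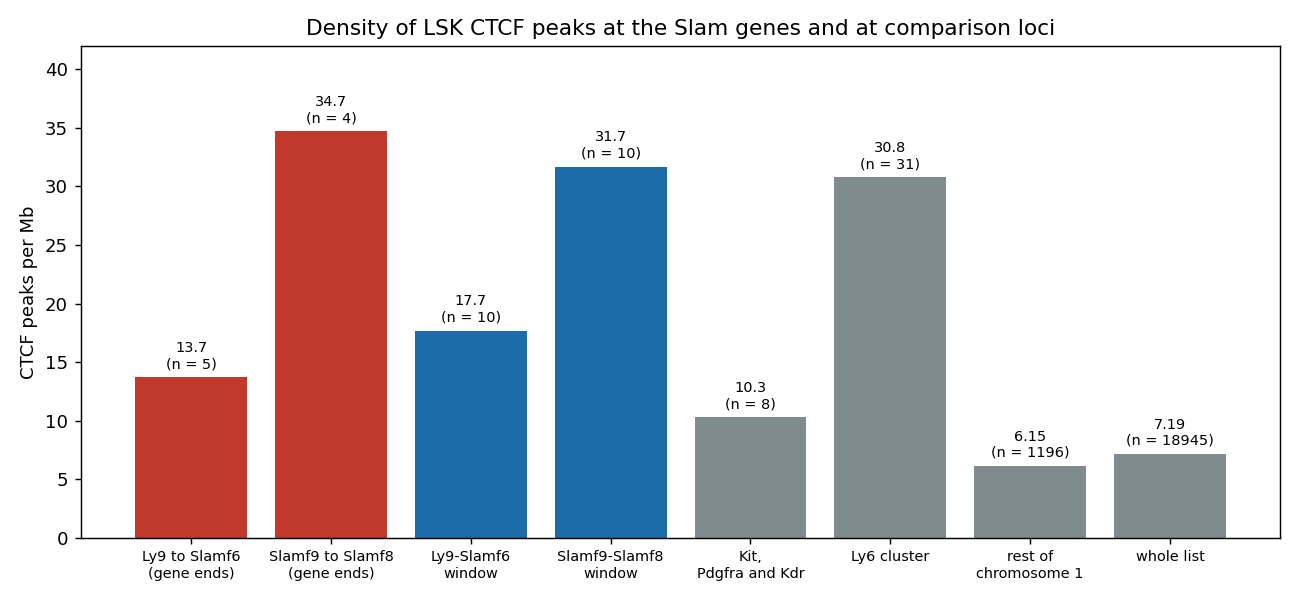
LSK CTCF peaks per Mb (y axis) for the SLAM receptor genes cut at the gene ends (red), for both windows (blue) and for comparison regions (gray), with the number of peaks over each bar. The stretch from Ly9 to Slamf6 is at 13.7 and that from Slamf9 to Slamf8 at 34.7, against 7.19 for the whole list. The values are not adjusted for the density of TSSs.

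Membership ended 100 kb from a gene body. The member farthest from one was P10, at 93520 bp, and the nearest peak outside was at 106140 bp, with a fold enrichment of 6.85.

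A peak within 10 kb of the TSS was found for 2 of the 8 genes, Ly9 and Slamf8 (25%, 95% Wilson interval 7.15% to 59.1%, which covers counting error only). Over all 21755 protein-coding genes this share was 29.3%, so the share of the receptor genes was near the background. Within 50 kb it was 7 of 8 against 67.7%, and within 1 kb 0 of 8 against 8.59%. The distance below is from the TSS, the 5′ end of the gene record, to the nearest edge of a peak.

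Ly9, which encodes CD229 of T and B cells, had the nearest peak, P4, at 2505 bp upstream, and P5 followed at 6312 bp. Ly9 lies on the minus strand from 171588624 to 171607410, wholly within the gene record of Cd244a on the plus strand (171559193 to 171609746), so P4 and P5 were also beyond the 3′ end of Cd244a. P4 was one of the weakest peaks of the list, at rank 18277 of 18945 by fold enrichment (5.55), and its −log10 p-value was 5.103. P5 was stronger, at 14.36 and 27.95.

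Slamf8 (chr1:172581758-172590568, minus strand), a gene of macrophages, was second at 3841 bp, with P18 upstream. P18 was weak too, at rank 18536 (fold enrichment 5.22, −log10 p-value 5.825). Both of the SLAM genes with a peak within 10 kb thus had a weak one nearest to the TSS, and only Ly9 had a strong one in the same range.

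Cd84 (chr1:171839697-171890718, plus strand), whose receptor is found on platelets and lymphocytes, followed. P8 was 13036 bp upstream of its TSS (fold enrichment 12.73, −log10 p-value 14.325), and P7 was 23450 bp upstream (10.12 and 11.829). Slamf9 (chr1:172475358-172478575, plus strand) came next, with P14 at 14764 bp downstream of its TSS, beyond the 3′ end of this short gene and within Igsf9.

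For Cd48 (chr1:171682009-171705258, plus strand) the nearest peak was P6, 17029 bp downstream of the TSS and inside the gene. P6, chr1:171699038-171699505, was the narrowest of the member peaks at 468 bp, against a median width of 719 bp over the 20 peaks and 715 bp over the list. Its fold enrichment was 10.44 and its −log10 p-value 14.261, both near the medians of the list (10.12 and 12.617). The midpoint was in intron 2 and the right end covered 122 bp of exon 3 (171699384 to 171699650), which is in 1 of the 2 annotated transcripts. The TSS of Cd48 itself lay in a gap of 84476 bp that also held the whole of Slamf7.

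Slamf7 (chr1:171632403-171653035, minus strand), a receptor gene of natural killer and plasma cells, had its nearest peak, P5, 38474 bp away, beyond its 3′ end. Slamf1 (chr1:171767127-171801184, plus strand) had P7 at 48465 bp from its TSS, also beyond the 3′ end. Slamf6 (chr1:171917515-171953170, plus strand), a receptor gene of T and natural killer cells, was the farthest at 90854 bp from P8, or 69274 bp when every annotated transcript start was taken as a TSS. Of all protein-coding genes, 33.0% were as far from a peak as Slamf1 or farther, 58.8% as far as Cd48 and 20.9% as far as Slamf6. For Ly9 this share was 87.2%. Among the 8 genes Slamf1, which encodes the stem cell marker CD150, was thus farther from a peak than all but Slamf6, and Cd48 stood between Slamf9 and Slamf7. With 1 library there is no spread against which to order neighbors such as Cd84, Slamf9 and Cd48, whose distances differed by a few kilobases.

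**Figure D3:**
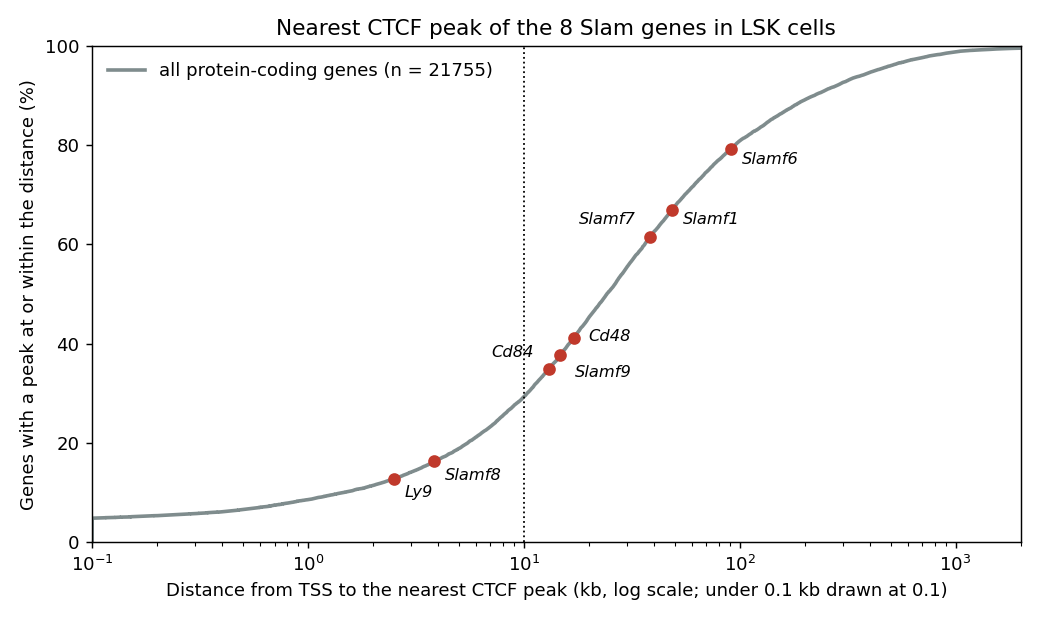
Distance from the TSS to the nearest LSK CTCF peak in kb (x axis, log scale) and the percentage of the 21755 protein-coding genes with a peak at or within that distance (y axis). The gray curve is all protein-coding genes, the red points are the 8 SLAM receptor genes on it, and the dotted line is at 10 kb, to the left of which lie only Ly9 and Slamf8.

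Of the stretches without a peak that held a SLAM receptor gene, the longest was 185241 bp, from 171826662 to 172011902, and it held the whole of Cd84 and Slamf6. Of the gaps between neighboring peaks in the list, 16.0% were at least as long. Such gaps held 38.4% of all protein-coding TSSs. Slamf1 was in a gap of 116086 bp (25.2% of gaps as long), and Ly9 in one of 106106 bp (27.3%). Gaps at least that long held 52.3% and 55.2% of all protein-coding TSSs. Slamf9 was in a gap of 77341 bp and Slamf8 in one of 30705 bp. A longer gap, of 690066 bp, began at P20 and held none of the 8 genes. Its length was reached by 3.24% of gaps.

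The fold enrichment of the member peaks ranged from 5.22 to 24.15 with a median of 11.58, beside 10.12 over all peaks. The median −log10 p-value was 14.234, beside 12.617. Of the 20 peaks, 12 were above the median fold of the list and 4 were in its highest 10%, P11, P14, P19 and P20. All 4 were in the window of Slamf9 and Slamf8. In that window the values ran from 5.22 to 24.15 with a median of 15.34, and in the window of Ly9 to Slamf6 from 5.55 to 14.36 with a median of 10.28. The values of both windows overlapped: 5 peaks around Slamf9 and Slamf8 were above the highest of the first window and 5 were not.

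**Figure D4:**
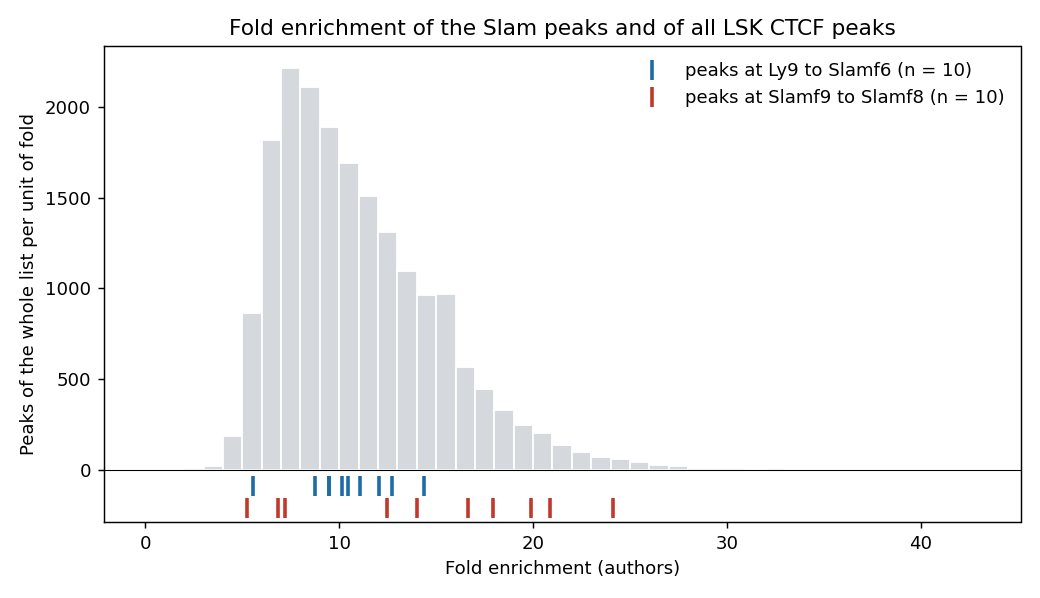
The authors' fold enrichment (x axis) of all 18945 LSK CTCF peaks as a histogram (y axis, peaks per unit of fold), with the 10 peaks at Ly9 to Slamf6 as blue ticks and the 10 at Slamf9 to Slamf8 as red ticks below it. The blue ticks end at 14.36, whereas 5 red ticks lie above that value.

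P19, the strongest member at rank 181, had the highest share of repeats. They made up 53.9% of its bases, against a mean of 20.6% over the 20 peaks and 19.1% over the list. Of its 36-base words, 39.6% occurred more than once in the genome, the commonest at 18958 places. In the other member peaks this share was between 0.0% and 10.2%. A commoner word, at 705633 places, was in P10, where 2.38% of words were repeated. These shares were not computed over the whole list. The reads of this library were allowed to map to several places, and the share of P19 that came from its other copies was not tested. The motif site of P19 was 21 bp from the midpoint of the peak.

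Motifs were sought in 2 ways. The first was the 12-base core of the CTCF motif with no mismatch, on both strands. Of the member peaks 7 held it (35.0%, Wilson interval 18.1% to 56.7%), namely P4, P5, P10, P13, P17, P18 and P19, beside 35.6% of all peaks. The second was a matrix of 20 positions made from the peaks outside Chromosome 1, with a site counted when its score, a sum of log2 ratios, was reached by at most 5% of same-sized windows 10 kb to the left of those peaks (14.39 or more). By this measure 12 peaks held a site (60%, 38.7% to 78.1%), beside 72.7% of all peaks and 72.2% of those on the rest of Chromosome 1, which like the members had no part in the matrix. The shares of the list were within the counting intervals of the members.

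All 12 sites were within 60 bp of the midpoint of their peak (100%, 75.8% to 100%), beside 80.0% of the 13776 sites of the list. The share of the list was within this interval, and the farthest of the 12 sites, in P7, was at 50 bp, close to the limit. The midpoint is not a summit named by the deposited list. The strongest sites were those of P10 (matrix score 24.49), P13 (23.74), P15 (23.33) and P18 (22.42). The score of the site and the strength of the peak did not go together in P15 and P18, whose fold enrichments were 6.85 and 5.22. The core in P17, at Vsig8, had a matrix score of only 3.42, below the limit.

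Of the peaks that held neither a core with 1 mismatch allowed nor a matrix site at a limit of 10%, there were 3 of 20 (15%, 5.24% to 36%), beside 8.26% of the list. They were P6 in Cd48, P8 upstream of Cd84 and P11 before Slamf9. P8 had the poorest best site, with a score of 1.82, and a fold enrichment of 12.73. P11 had the second highest fold enrichment of all member peaks, 20.88, and its best score was 9.77. Whether CTCF touched the DNA of these peaks itself was not tested. Repeated sequence was low in all 3, with 0.693% of 36-base words found more than once in P6, 1.1% in P8 and 0.0% in P11.

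The direction of the motif was read from the strand of the 12 matrix sites. It was plus in 9 (75.0%, 46.8% to 91.1%) and minus in 3, P5, P14 and P15. In the list 49.5% of 13776 sites were on the plus strand, which is within this interval. Of neighboring peaks that both held a site, 2 pairs among the 7 faced each other, beside 25.1% of 10101 such pairs in the list. One was P4 and P5, with 3151 bp between them, upstream of Ly9. The other was P13 and P14, whose sites faced each other across 77341 bp that held Slamf9. P15 and P16, on both sides of the Cfap45 TSS, pointed away from each other, and the remaining 4 pairs pointed the same way. The nearest sites on both sides of Slamf7, Cd48 and Slamf1 were those of P5 on the minus strand and P7 on the plus strand, which pointed away from these genes, with P6 between them. P5 and P7 were thus not neighbors and not among the 7 pairs, and no share of the list is given for such pairs. Of the neighboring pairs in the list, 2640 of 10101 pointed away from each other. Contacts between the sites of the member peaks were not measured in the data used here.

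Peaks close to each other were counted too. Of the 20, 6 had another peak within 2 kb (30.0%), beside 11.3% of the list. They were the groups P1 to P3 at Alyref2 and P11 to P13 before Slamf9. All 6 were nearer to the TSS of Alyref2 or Pigm, which encodes an enzyme of lipid anchor synthesis, than to that of a SLAM receptor gene. No interval is given, since close peaks are counted together and not independently. The windows were also denser in peaks, at 22.7 per Mb against 7.19 over the list, and the share was not compared at equal density.

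Sites without a peak were then looked for. The 2 windows held 14 exact cores, of which 7 were in a peak (50%, 26.8% to 73.2%), beside 30.3% of 22944 in the genome. The share of the genome was within this interval. The windows had 22.7 peaks per Mb against 7.19 over the list, and the shares were not compared at equal density. One of the 7 cores outside peaks was in an intron of Slamf7. It was CCACCAGGGGGC at chr1:171651560-171651571 on the minus strand, outside repeats, with a matrix score of 16.61, and the nearest peak was 37004 bp away. It is shown because its score exceeded that of P5 (14.86), which was a strong peak. Another was in an intron of Cd244a, with a score of 14.42 and 45444 bp from a peak. The highest score without a peak, 20.71, was intergenic, 4407 bp from P20. In the RefSeq table of promoters (GRCm38.p6), 7 of the 8 receptor genes had an entry and Ly9 had none. The core was in 0 of the 7, and in 1.4% of all 32851 promoters.

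Of a list of 12 SLAM signaling genes, 4 were within 10 kb of a peak (33.3%, 13.8% to 60.9%), beside the same 29.3% of protein-coding genes. With every annotated transcript start taken as a TSS, 6 were, Fyn and Prkcq in addition, beside 38.1% of protein-coding genes, while the receptor genes remained 2 of 8. Cd2, a related adhesion receptor gene, had a peak 7408 bp upstream with a fold enrichment of 23.17. Lck, a kinase gene of T cells, had one at 3272 bp (8.48), and Ptpn6, whose phosphatase binds SLAM receptors, one at 6444 bp (14.03). The TSS of Becn1, an autophagy gene, was covered by a peak of 19.58. Cd244a, the gene of the receptor for CD48, was not among the 4, since its TSS was 50722 bp from P4, or 30852 bp from a peak by its nearest transcript start. Sh2d1a, the adaptor gene, was far from any peak, at 468955 bp.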

How the data were processed

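CTCF ChIP-seq of 1 library of LSK cells was deposited by the authors as a broadPeak list of 18945 peaks. Per the study's methods, reads were mapped to mm10 with Bowtie, reads mapping to several places were kept, those on ChrM or on unplaced chromosomes were discarded, and peaks were called with MACS. The submitters' processing notes give bcl2fastq and Bowtie 1.0.0, a different Bowtie version from that in the study's methods, and the versions were not reconciled. MACS settings, and whether an input was its control, were not given in the sources used here. No header comes with the list. From the authors' columns, a linear ratio (fold enrichment) and a −log10 p-value were used as deposited, and a false discovery rate or q-value, whose scale the authors do not state, only to rank peaks. The list holds no read counts, so the depth behind each value is unknown. Starts were read as counted from 0 and are printed counted from 1.

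All other values came from Python 3.11.15 using numpy 2.4.6, pandas 2.3.3 and scipy 1.17.1. Genes were from GENCODE M21, and sequence and repeats (soft-masked bases) from GRCm38.p6. The motif core had 12 positions. The matrix was made from sites within 100 bp of the midpoints and searched over whole peaks. Intervals printed with shares are 95% Wilson intervals, and with 1 library no test was run. Named genes were the 8 receptor genes, the gene with the nearest protein-coding TSS to each peak, other protein-coding genes of the windows, and signaling genes with a peak within 10 kb. Cd244a, Sh2d1a, Fyn and Prkcq were named after their values were seen. The members and the gene lists were chosen with earlier results of these data known. The motif and distance steps were tested on simulated data. Alternatives were the 50% of the list with the highest −log10 p-value or the lowest false discovery rate, other distances, merged peaks, other motif limits, every transcript start and 50-base words. Counting signaling genes by every transcript start was added after seeing the data.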

Additional observations from a re-analysis of the deposited data

How the results depend on the processing

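The 20 peaks became 12 in the 50% of the list with the highest −log10 p-value, 12 in the 50% with the lowest false discovery rate and 12 at a distance of 50 kb, while 200 kb (29), midpoints (20) and merging within 1 kb (17) moved the count by less than 1.5 times. Both stricter lists left 5 peaks around Ly9 to Slamf6 and 7 around Slamf9 and Slamf8. The genes with a peak near the TSS went from 2 to 1 in both stricter lists, Ly9, and to 0 at 1 kb and 7 at 50 kb. The share of all protein-coding genes was not computed in the stricter lists. The core was in 75.0% of peaks with 1 mismatch (53.1% to 88.8%), beside 83.6% of all peaks. The matrix site was in 25% at the 1% limit (11.2% to 46.9%), beside 40.1%. At the 10% limit it was in 80.0% (58.4% to 91.9%), beside 86.4%. Each share of the list was within the counting interval of the members, and these settings count the same 20 peaks. With 1 mismatch 187 of 205 motif sites had no peak, in place of 7 of 14, and 8.78% were in a peak, beside 4.52% in the genome. These shares too were not compared at equal density of peaks. Repeated words made up a mean of 2.07% at 50 bases, in place of 3.34% at 36. Median fold enrichment (11.09 to 14.2) and the longest gap (220028 bp) moved by less than 1.5 times.

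With 1 library, leaving out a replicate was not run, and counting error in the reads is unknown. No paired analysis was possible because 1 sample has a peak list and no test was run. Peaks below the authors' threshold are not in the list, so a stretch without a peak is one without a called peak.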

Other observations

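The loci of 2 markers of the gate, cKit and Sca1, were measured in the same way for comparison. Whether the other genes at these loci were expressed in LSK cells was not measured here. The windows of 100 kb around Kit, Pdgfra and Kdr on Chromosome 5, genes of receptor tyrosine kinases, held 8 peaks in 0.773 Mb (10.3 per Mb), with 4 protein-coding TSSs. The nearest peak to Kit was 580 bp downstream of the TSS, with a fold enrichment of 6.53, and that to Kdr was 106839 bp away. The windows of the Ly6 cluster on Chromosome 15, small lipid-anchored proteins that include Sca1, held 31 peaks in 1.01 Mb (30.8 per Mb), with 29 protein-coding TSSs. Ly6a, the Sca1 gene, had a peak 4729 bp from its TSS, with a fold enrichment of 10.12. The median fold enrichment was 9.95 at Kit, Pdgfra and Kdr, 11.09 at the Ly6 cluster and 11.58 at the SLAM receptor genes. The exact core was in 50%, 35.5% and 35.0% of their peaks, and a matrix site was in 75.0%, 45.2% and 60%. Over the whole list these shares were 35.6% and 72.7%. The Wilson interval of the Ly6 cluster for the matrix site (29.2% to 62.2%) was below the share of the list, and the other intervals covered it. Between the loci the intervals of each share overlapped, and the differences were not tested.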
